A study of Mus musculus with 6 samples.

Results

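The comparison described here sets the paraventricular nucleus of the hypothalamus (PVN) of C57Bl/6 mice 6 h after a single electroconvulsive seizure (ECS) against the PVN of sham-treated mice. Its arrays were taken by their sample titles, and it holds 4 of the 6 arrays of the series, 2 at 6 h after ECS and 2 from shams. The other 2 arrays, from ECS mice at 2 h, entered the fit and are used only to set the later values beside the earlier ones. ECS mice were anaesthetised with isoflurane and received 1 shock through ear clips (25 mA for 1 s, 100 pulses per s, pulse width 0.5 ms). Sham mice were handled in the same way but received no current. Sham tissue was collected at 2 h only. The comparison therefore also holds a difference of 4 h between the collections, and this cannot be told apart from the effect of the seizure. The nucleus was cut by laser from 7 µm sections, RNA of 2 to 3 mice was pooled for each array, and 2 ng of RNA was amplified. The experiment was run 2 times with different animals. Replicate numbers 1 and 2 were taken here as the runs, which the labels do not state outright. The labels give neither the age nor the sex of the mice.

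The PVN is a small nucleus beside the third ventricle. Its magnocellular neurons make oxytocin and vasopressin for release in the posterior pituitary, and its parvocellular neurons send corticotropin-releasing hormone, thyrotropin-releasing hormone and somatostatin to the anterior pituitary. A generalised seizure drives such neurons hard and is followed by release of pituitary and adrenal hormones. Strong firing is known to switch on immediate early genes within minutes, and these are usually back near their resting level within hours, when longer-lived effector genes and the refilling of hormone stores can follow. Peptide hormones are made and folded in the endoplasmic reticulum (ER) and packed into granules.

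Values are log2(signal + 16) after the arrays had been brought to a common distribution, so 4 is the floor and a difference of 1 is 2-fold on this scale. Differences are ECS 6 h minus sham with their standard error (SE), from a limma model over the 6 arrays. Of 22626 probe sets without the controls, 12662 passed the filter on low signal, and these stand for 7332 genes. The PVN was well represented on every array. Oxt (oxytocin) read 10.86 and 10.82 in sham, and 11.49 and 11.03 at 6 h, and Sim1, the factor that specifies PVN neurons, at 8.53 and 7.86 in sham and at 8.38 and 8.35 at 6 h. No marker of the pituitary passed the filter. The first array at 6 h stood apart from the other 5. Its mean rank correlation with them was 0.887 against 0.906 to 0.919. Its ratio of 3' to 5' Gapdh signal, which grows as RNA is degraded or copied incompletely, was 14.1 against 6.43 to 10.5. For actin, the same array had a ratio of 0.764, which fell inside the span of the other arrays (0.562 to 0.771). Because of its correlation and its Gapdh ratio, results are given for each run as well. With 2 pools per group, p-values rest on a spread between pools and not between single mice. That spread is taken over all 3 groups, the arrays at 2 h included, and is drawn by limma towards that of other probe sets.

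No probe set passed the test of ECS 6 h against sham at an adjusted p of 0.05 (0 of 12662, or 0%, limma with Benjamini-Hochberg adjustment, smallest adjusted p = 0.9998). Without adjustment 475 probe sets had a p under 0.05, or 3.75% of those tested, with 216 above sham and 259 below it. That share, from a fit without the replicate number, is below the 0.05 that such a threshold passes when nothing differs. With the replicate number as a block in limma this count was 793 of 12662, a share above 0.05, so its side of 0.05 depended on the fit. The smallest adjusted p of that fit was 0.264, again with 0 calls. Every gene difference below is therefore a measured value that did not pass the test over all probe sets. As a description, 166 probe sets (1.31%) were at least 2-fold higher at 6 h with both ECS arrays above both sham arrays, and 248 (1.96%) were at least 2-fold lower with both below. These stand for 147 and 214 genes. With no limit on size, 15.0% of the 7332 genes lay above sham without overlap and 15.4% below it. The size of the difference came more from run 1, which was the larger in 135 of the 166 and in 206 of the 248. In 32 of the higher and 62 of the lower probe sets the difference was at least 2-fold in each run by itself.

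The runs had little in common over the whole array. Across the 12662 probe sets the difference in run 1 and that in run 2 correlated with r = 0.0533, and 51.7% of them had the same direction in both. These points are genes on shared arrays, not replicates. The SD of the differences was 0.739 in run 1 and 0.486 in run 2. A few genes lay far from the bulk in both runs, among them Srxn1, Csf1, Cpne2 and Sf3a2 on the high side and Pvalb, Igfbp5, Pitpnc1, Sec14l2 and Ptgds on the low side. Irak1 and Arap3 were high, and Mef2c, Lamp5 and Mylk low, mainly in run 1.

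**Figure D1:**
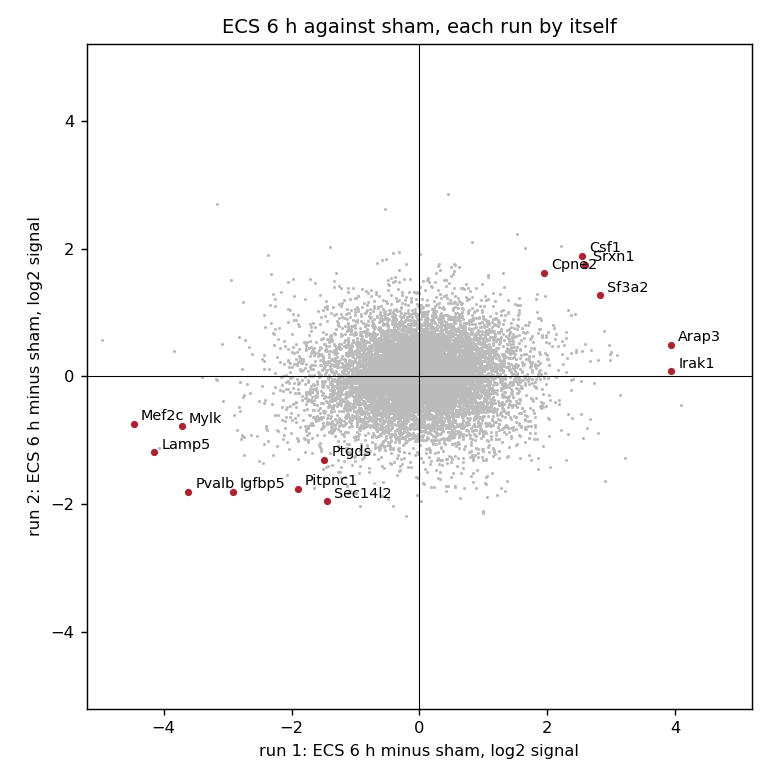
Difference between ECS 6 h and sham (log2 signal) in run 1 (x axis) and in run 2 (y axis) for the 12662 tested probe sets (grey), with 14 named probe sets in red. The cloud has no clear slope (r = 0.0533), and Srxn1 lies at 2.60 and 1.75 while Irak1 lies at 3.94 and 0.08.

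Srxn1 had the smallest p of all named probe sets. It encodes sulfiredoxin, which restores peroxiredoxins that have been inactivated by peroxide, and it is a known target of AP-1 and of NRF2. Its probe set with the smallest p read 6.30 and 6.50 in sham and 8.90 and 8.24 at 6 h. Both ECS arrays lay well above both sham arrays, by 2.17 ± 0.37 (SE) or 4.51-fold (unadjusted p = 0.000131). Another probe set read 7.46 and 6.46 in sham and 8.99 and 8.68 at 6 h, a difference of 1.88 ± 0.38. The brightest probe set read 8.63 and 8.39 against 9.24 and 10.11, a difference of 1.17 ± 0.32, or 0.74 without the second array at 6 h. All 4 probe sets of Srxn1 were higher at 6 h without overlap. The level at 6 h was already there at 2 h, where the first of these probe sets read 8.90 and 8.28, and the difference between 6 h and 2 h was -0.02. These values share the sham arrays with the comparison at 2 h.

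The 250 bases before the start of Srxn1 are shown because 2 copies of the AP-1 motif TGACTCA, to which dimers of Fos and Jun proteins bind, lie in them on the reverse strand. The capitals mark the motif, at -102 to -96 and at -45 to -39 from the start. The sequence is from RefSeq, build GRCm38.p6, chr2:152105274-152105523, plus strand.
Srxn1: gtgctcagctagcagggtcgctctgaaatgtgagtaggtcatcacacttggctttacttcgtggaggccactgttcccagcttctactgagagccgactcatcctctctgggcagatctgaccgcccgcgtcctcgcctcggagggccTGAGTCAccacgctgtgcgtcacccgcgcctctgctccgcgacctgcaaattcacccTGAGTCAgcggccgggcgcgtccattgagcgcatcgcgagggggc
Over both strands this motif was present in the same window of 1466 of 32851 RefSeq promoters (4.46%). A match of letters is a description and no measure of binding.

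As a group, antioxidant genes lay close to sham. Of 20 tested members of the list of antioxidant and NRF2 targets, 13 were higher and 7 lower at 6 h, 4 and 3 of them without overlap, where 15.0% of all genes were higher and 15.4% lower without overlap. The median was 0.059, beside -0.002 over all genes. The median turned below 0 when either the second sham array or the first array at 6 h was left out. Gclm, the regulatory subunit of the enzyme that starts glutathione synthesis, read 6.46 and 6.21 in sham and 6.08 and 5.62 at 6 h. Gpx3, a secreted glutathione peroxidase, read 10.05 and 10.29 in sham and 10.55 and 10.38 at 6 h. Among the 17 members with a promoter entry, Srxn1 was the only gene with the AP-1 motif in this window.

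Other genes on the high side came from unlike functions. Csf1, the growth factor of microglia and macrophages, read 6.49 and 6.84 in sham and 9.03 and 8.73 at 6 h, a difference of 2.22 ± 0.73 or 4.65-fold. Both arrays at 6 h lay far above sham, while the ECS arrays at 2 h lay on either side of it at 5.80 and 8.75. The value rests on this probe set, since the other tested one read 5.84 and 4.92 in sham and 5.53 and 5.87 at 6 h, with overlap. Cpne2, a calcium-dependent phospholipid-binding protein, read 5.44 and 5.10 in sham and 7.39 and 6.72 at 6 h, a difference of 1.78 ± 0.40. Sf3a2, a subunit of the splicing factor 3a complex, read 5.63 and 6.14 in sham and 8.46 and 7.41 at 6 h, a difference of 2.05 ± 0.49. In all 3 genes the difference exceeded 1 in each run. Map4k4, a kinase upstream of JNK, read 7.06 and 7.53 in sham and 8.92 and 8.45 at 6 h, a difference of 1.39 ± 0.34, but its 3 tested probe sets did not have the same direction.

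Some high values rested on a single probe set or a single array. Rpl37a, a protein of the large ribosomal subunit, read 4.50 and 4.53 in sham and 6.72 and 6.57 at 6 h. Its probe set is of a type (x_at) that can bind several transcripts and its sham values lay near the floor, so the difference of 2.13 ± 0.42 is uncertain, and it was 1.06 with an offset of 64. The other 2 probe sets of Rpl37a, both far brighter, overlapped. Mrpl15, a mitochondrial ribosomal protein, differed by 1.83 ± 0.58 on a probe set of the same type, while 1 of its 5 tested probe sets was lower. Pla2g7, the enzyme that breaks down platelet-activating factor, read 5.94 and 7.44 in sham and 8.83 and 8.15 at 6 h, and its difference of 1.80 ± 0.49 was 1.05 without the first sham array. Irak1, a kinase of interleukin-1 and Toll-like receptor signalling, read 7.70 and 8.15 in sham but 11.64 and 8.23 at 6 h. The difference of 2.01 ± 0.80 was 0.30 without the first array at 6 h, and another of its 3 tested probe sets overlapped. Arap3, a regulator of Arf GTPases, read 4.73 and 5.82 against 8.66 and 6.31, and its difference of 2.21 ± 0.68 was 1.04 without that array.

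**Figure D2:**
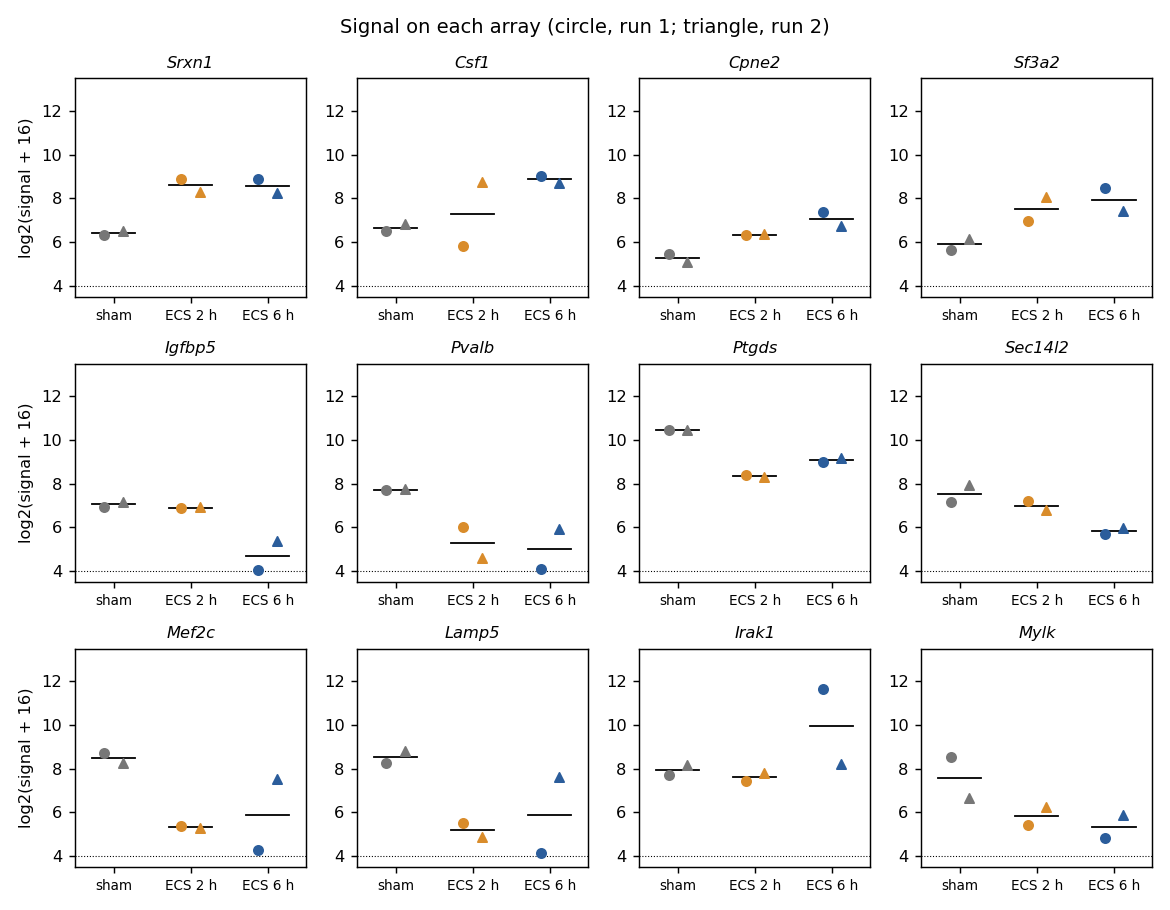
Log2(signal + 16) of 12 genes on each of the 6 arrays, by group (x axis), with the group mean as a bar and the floor of 4 as a dotted line. Srxn1, Csf1, Cpne2 and Sf3a2 lie above sham on both arrays at 6 h, Igfbp5 lies at 4.02 and 5.37 at 6 h but at 6.87 and 6.92 at 2 h, and Mef2c, Lamp5 and Irak1 differ between the arrays at 6 h.

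On the low side, Ptgds was nearly alike in both runs. It encodes the lipocalin-type prostaglandin D synthase of meninges, choroid plexus and oligodendrocytes, which makes the sleep-promoting prostaglandin D2. It read 10.46 and 10.47 in sham and 8.98 and 9.17 at 6 h, a difference of -1.39 ± 0.25 (unadjusted p = 0.000173), with -1.49 in run 1 and -1.30 in run 2. Both of its probe sets were lower without overlap. It was lower still at 2 h, at 8.38 and 8.29. Sec14l2, a lipid-binding protein, read 7.15 and 7.93 in sham and 5.71 and 5.98 at 6 h, a difference of -1.70 ± 0.40. Pitpnc1, a phosphatidylinositol transfer protein, read 8.23 and 8.62 in sham and 6.33 and 6.86 at 6 h, a difference of -1.83 ± 0.37. Of its 7 tested probe sets 4 were higher and 3 lower, so the value belongs to that single probe set.

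Several genes of the growth factor list were on the low side, with no common direction of the list. It had 14 members higher and 11 lower of 25, with 2 and 5 without overlap, beside 15.0% and 15.4% of all genes. Igfbp5, a binding protein of insulin-like growth factors, read 6.94 and 7.17 in sham, 6.87 and 6.92 at 2 h, and 4.02 and 5.37 at 6 h. On this probe set both arrays at 6 h lay below the other 4, by 2.20 from the mean at 2 h on the log2 scale (adjusted p = 0.999, limma) and with a difference of -2.36 ± 0.47 from sham. The first array at 6 h lay at the floor, and the difference from sham was -4.40 with an offset of 1 and -1.26 with an offset of 64. Its other tested probe set read 7.06 and 6.03 in sham, 6.15 and 6.11 at 2 h, and 4.88 and 6.47 at 6 h, a difference of -0.87 with overlap. Igfbp4 read 8.64 and 7.78 in sham and 5.87 and 6.87 at 6 h, a difference of -1.85 ± 0.50, and all 5 of its tested probe sets were lower without overlap. Igfbp2 read 5.74 and 6.05 in sham and 4.82 and 4.94 at 6 h, a difference of -1.02 ± 0.46. Both bind the same growth factors outside cells. Fgfr2, a receptor of fibroblast growth factors, read 6.49 and 7.02 against 4.04 and 5.66 on 1 probe set and overlapped on the other, and Tgfb2 (transforming growth factor beta 2) read 6.04 and 5.99 against 4.64 and 5.11.

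Vessel and blood markers had no common direction, with 8 higher and 5 lower of 13 tested and a median of 0.067. Without overlap 4 were higher and 2 lower, beside 15.0% and 15.4% of all genes. Myl9, a myosin light chain of smooth muscle, read 6.81 and 7.01 in sham and 5.35 and 5.59 at 6 h, a difference of -1.44 ± 0.39 that was alike in both runs. Acta2, the actin of smooth muscle, read 5.91 and 5.75 against 4.11 and 4.56. It passed the filter on low signal through the sham arrays only, and its difference was -3.22 with an offset of 1 and -0.62 with an offset of 64. Mylk, the kinase of myosin light chains and no member of this list, read 8.52 and 6.65 against 4.81 and 5.86, and its difference of -2.25 ± 0.62 was -1.33 without the first sham array. Pdgfrb, the receptor of pericytes, was on the high side at 5.40 and 5.47 in sham and 6.49 and 6.32 at 6 h, and so was Flt1, a receptor of vascular endothelial growth factor, at 5.18 and 5.83 against 6.76 and 6.16.

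Marker genes of cortical and hippocampal neurons, called forebrain markers below, were among the lowest values. Across the list of cortical and hippocampal neuron markers, 9 of 10 tested genes were lower at 6 h, 8 of them without overlap (15.4% of all genes were lower without overlap), and the median was -1.23, with -2.04 in run 1 and -0.58 in run 2, and -0.69 without the first array at 6 h. Of 14 members on the array these 10 passed the filter on low signal, which high sham values alone can satisfy. The size of the median depended on it, at -0.87 with no filter and -1.58 with the filter at the 75th percentile. Mef2c, a transcription factor of excitatory neurons, read 8.72 and 8.27 in sham and 4.25 and 7.53 at 6 h on the lowest of its probe sets. All 5 of its probe sets were lower without overlap, and the difference of -2.61 ± 0.80 on this probe set was -0.95 without the first array at 6 h. Lamp5, a membrane protein of cortical neurons, read 8.27 and 8.82 in sham and 4.11 and 7.64 at 6 h. Its difference of -2.67 ± 0.86 was -0.89 without the first array at 6 h. Kalrn, an exchange factor of dendritic spines, read 10.58 and 10.01 against 8.18 and 9.24, a difference of -1.58 ± 0.39, while its other tested probe set, far dimmer, overlapped. Nrgn (neurogranin), a calmodulin-binding protein of spines, read 6.71 and 7.14 against 4.20 and 5.82.

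The summed signal of these markers was 3428 and 3317 in sham, then 579 and 651 at 2 h, and 823 and 1991 at 6 h. The ECS arrays thus held less of it than sham at both times, and the second array at 6 h lay nearest to sham. The list was drawn up for neurons of cortex and hippocampus and not for those of the PVN. In RNA cut from sections a smaller number of cells of a type and less RNA per cell cannot be told apart. Beside them, Pvalb (parvalbumin), a calcium buffer of fast-spiking interneurons that is sparse in the PVN, read 7.68 and 7.73 in sham and 4.07 and 5.92 at 6 h, a difference of -2.71 ± 0.64, or -1.76 without the first array at 6 h. Rasgrp1, an activator of Ras, read 7.47 and 8.11 against 4.73 and 6.88, and all 3 of its probe sets were lower without overlap. The part of this marker list in the other differences was not tested.

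**Figure D3:**
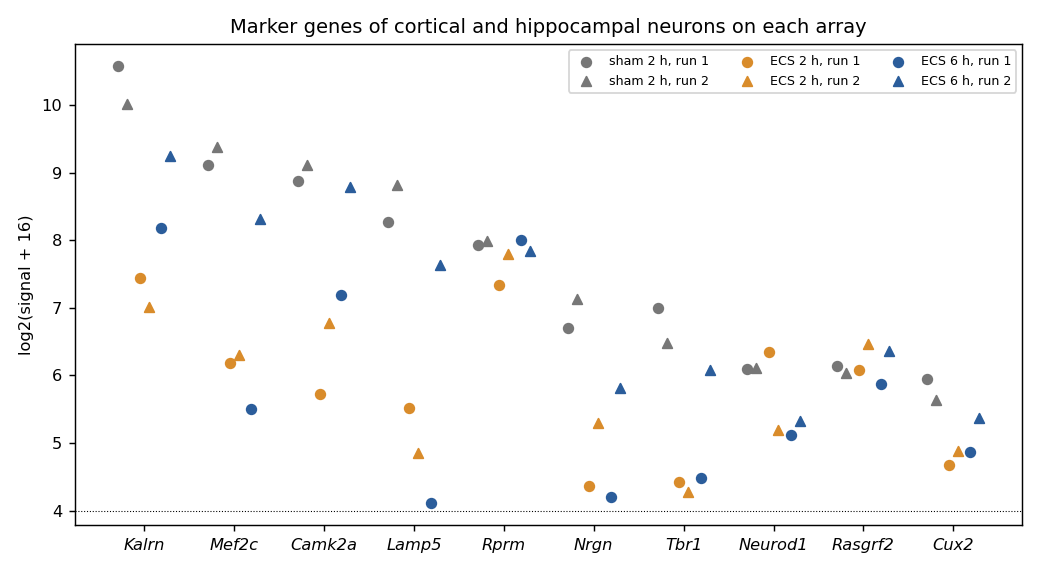
Log2(signal + 16) of the 10 tested marker genes of cortical and hippocampal neurons on each array (circle, run 1; triangle, run 2), ordered by the mean in sham. Both sham arrays lie highest for most of the genes, and the second array at 6 h lies between sham and the first array at 6 h in Mef2c, Lamp5 and Nrgn.

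Synaptic genes were lower too, by less. Of 23 tested genes of the vesicle release machinery 16 were lower and 7 higher, 8 and 0 without overlap. Among all genes 15.4% were lower and 15.0% higher without overlap, which also stands beside the next lists. The median was -0.25 (-0.33 in run 1 and -0.11 in run 2), or -0.072 without the first array at 6 h. Bsn (bassoon), a scaffold of the presynaptic active zone, read 8.36 and 8.17 in sham and 6.68 and 7.21 at 6 h, a difference of -1.32 ± 0.35. Stx1a (syntaxin 1A), a fusion protein of the plasma membrane, read 8.84 and 8.56 against 7.49 and 7.81, and Cplx1 (complexin 1), which clamps vesicle fusion, read 9.15 and 9.15 against 8.01 and 8.43. Of 13 tested subunits of glutamate and GABA receptors 10 were lower, 3 without overlap, and the median was -0.31, or -0.070 without the first array at 6 h. Gria3, an AMPA receptor subunit, read 8.28 and 7.42 against 7.31 and 6.99. General neuron markers were lower in 15 of 17, 5 without overlap, with a median of -0.24 that was -0.011 with median scaling. Snap25, an abundant fusion protein of all neurons, read 12.74 and 12.54 in sham and 12.35 and 12.43 at 6 h, and its difference of -0.26 ± 0.12 was -0.05 with median scaling. Gad1, the main enzyme of GABA synthesis, was uneven, at 8.84 and 9.71 in sham and 7.22 and 9.02 at 6 h.

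Most genes of the PVN list, which holds peptides and identity genes together, lay above sham. Of 18 tested PVN peptides and identity genes 13 were higher and 5 lower at 6 h, 7 and 3 without overlap. The shares over all genes were 15.0% higher and 15.4% lower without overlap. The median was 0.22 (0.32 in run 1 and 0.10 in run 2), or 0.061 without the first sham array. Oxt differed by 0.42 ± 0.19, or 0.19 without the first array at 6 h, with both arrays at 6 h above both shams. Avp (vasopressin) read 10.02 and 9.55 in sham and 10.15 and 10.08 at 6 h, and its difference of 0.33 ± 0.23 was 0.10 without the second sham array. Sst (somatostatin), which restrains growth hormone, read 8.85 and 8.87 against 9.81 and 9.08. Penk (proenkephalin), an opioid precursor, read 7.84 and 8.32 against 9.17 and 8.34, and the second array at 6 h did not stand out. Gal (galanin) read 6.69 and 6.81 against 7.45 and 7.19. Trh (thyrotropin-releasing hormone) read 9.11 and 10.09 against 9.85 and 10.15 and Pdyn (prodynorphin) read 6.01 and 7.25 against 6.25 and 7.49, and in both genes the groups overlapped.

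The 3 members of the PVN list that were lower without overlap, Cck, Npy and Vip, are also made by cortical interneurons, as is Sst, which was higher. Cck (cholecystokinin) read 6.72 and 7.01 in sham and 4.30 and 5.95 at 6 h, a difference of -1.74 ± 0.56, or -0.90 without the first array at 6 h. Npy (neuropeptide Y) read 7.18 and 6.16 against 5.08 and 5.46, and it passed the filter on low signal through the sham arrays only. Vip (vasoactive intestinal peptide), named after its values were seen, read 5.94 and 6.13 against 4.26 and 5.73. The forebrain marker sum was lower in the same arrays, and its part in these values was not tested. Of 14 markers of hypothalamic neurons in general 10 were higher, 5 without overlap, beside 15.0% of all genes. The median of these markers was 0.086. Among them Sncg (gamma-synuclein) read 6.73 and 7.13 in sham and 7.88 and 7.63 at 6 h, and Calcr (calcitonin receptor) read 6.87 and 6.80 against 8.26 and 6.90. Markers of other hypothalamic nuclei were higher in 3 and lower in 2 of 5, with a median of 0.56 that was 0.49 in run 1 and -0.16 in run 2. It was -0.0044 without the first array at 6 h and -0.046 with no filter on low signal. Markers of thalamus, striatum and other neighbouring neurons were lower in 5 of 7, 4 without overlap, and 2 were higher without overlap. Beside them stand 15.4% of all genes lower and 15.0% higher without overlap. The median was -0.44, or -0.21 with no filter and 0.36 with the stricter filter on low signal. The part of neighbouring tissue in the PVN values was not tested.

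Genes that process and store prohormones were close to sham or above it. Of 14 tested genes 10 were higher and 4 lower, 3 and 2 without overlap, beside 15.0% and 15.4% of all genes. The median was 0.15, or 0.040 without the second array at 6 h. Pcsk1, the convertase that cuts prohormones in the granule, read 7.88 and 8.16 in sham and 8.96 and 8.47 at 6 h, a difference of 0.70 ± 0.32, or 0.44 without the first array at 6 h. It had read 8.76 and 8.58 at 2 h. Scg2 (secretogranin II), a granule protein and activity-regulated gene, read 9.31 and 10.50 against 10.39 and 10.84, and its difference of 0.71 ± 0.35 was 0.11 without the first sham array. Ptprn, a membrane protein of granules, read 8.82 and 8.96 against 9.24 and 9.38, by 0.43 in run 1 and 0.42 in run 2. Chga (chromogranin A) was on the low side, at 7.75 and 7.44 in sham and 7.17 and 7.41 at 6 h.

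Genes of protein folding in the ER lay slightly above sham in both runs. Of 30 tested genes 25 were higher and 5 lower at 6 h, 9 and 0 of them without overlap, with a median of 0.16 (0.21 in run 1 and 0.12 in run 2). Over all genes 15.0% were higher without overlap, as given above. The median stayed above 0, between 0.11 and 0.34, under all 12 alternatives run for it. Pdia6, a disulfide isomerase, read 6.16 and 5.93 in sham and 7.03 and 6.96 at 6 h, a difference of 0.95 ± 0.37 (unadjusted p = 0.0264), with 0.87 in run 1 and 1.02 in run 2. Xbp1, the transcription factor of the unfolded protein response, read 8.90 and 8.89 in sham and 9.87 and 9.43 at 6 h, a difference of 0.76 ± 0.27, and 3 of its 4 probe sets, all higher, did not overlap. Dnajb9, an Xbp1 target and co-chaperone, read 9.90 and 9.88 against 10.36 and 10.43, a difference of 0.51 ± 0.21. Manf, a secreted ER protein, read 8.30 and 9.05 against 9.16 and 9.30, and its difference of 0.56 ± 0.30 was 0.18 without the first sham array. Hspa5 (BiP), the main chaperone of the ER, read 10.60 and 10.71 in sham and 10.79 and 10.99 at 6 h, a difference of 0.24 ± 0.19, or 0.14 without the second array at 6 h.

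The promoters of Pdia6 and Hspa5 are shown because each carries the ER stress response element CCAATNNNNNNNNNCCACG, which NF-Y binds together with ATF6 or XBP1. The capitals mark the match, at -98 to -80 from the start of Pdia6 and at -65 to -47 from that of Hspa5. Both are the 250 bases before the start on the plus strand of GRCm38.p6 from RefSeq, chr12:17266339-17266588 for Pdia6 and chr2:34771840-34772089 for Hspa5.
Pdia6: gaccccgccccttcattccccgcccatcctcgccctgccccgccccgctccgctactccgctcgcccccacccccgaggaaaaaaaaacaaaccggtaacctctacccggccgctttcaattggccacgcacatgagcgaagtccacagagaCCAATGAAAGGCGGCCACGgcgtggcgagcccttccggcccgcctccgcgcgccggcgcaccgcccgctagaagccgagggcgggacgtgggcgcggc
Hspa5: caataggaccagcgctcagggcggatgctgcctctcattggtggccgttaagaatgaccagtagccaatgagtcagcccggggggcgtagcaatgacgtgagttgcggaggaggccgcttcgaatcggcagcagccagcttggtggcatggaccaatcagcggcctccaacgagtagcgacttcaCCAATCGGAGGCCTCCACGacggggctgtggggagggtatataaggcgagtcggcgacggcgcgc
Over both strands the element was present in 37 of 32851 promoters (0.113%). Of the 28 members of the list with a promoter entry 7 held it, namely Calr, Canx, Creld2, Dnajc3, Hsp90b1, Hspa5 and Pdia6, which are named for the motif and not for their values. The element is a known feature of promoters of this group. Of the 7, Pdia6 and Hspa5 were higher without overlap and the other 5 overlapped with sham.

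Genes of the next steps in the secretory pathway stood slightly high, and so did some lists outside it. Medians were 0.083 for cytosolic ribosomal proteins, 0.068 for proteasome subunits and 0.23 for histone and chromatin regulators, beside 0.16 for ER folding. Of 32 tested genes of translocation, glycosylation and vesicle coats 23 were higher and 9 lower, with a median of 0.093. Without overlap 9 were higher and 1 lower, beside 15.0% and 15.4% of all genes. Ssr1, a subunit of the translocon-associated complex, read 8.29 and 9.35 in sham and 9.57 and 9.48 at 6 h, and its difference of 0.70 ± 0.37 was 0.17 without the first sham array, and 1 of its 3 probe sets overlapped. Spcs3, a subunit of the signal peptidase, read 8.36 and 8.29 against 9.06 and 8.80, a difference of 0.61 ± 0.29 that was 0.70 in run 1 and 0.51 in run 2. Sec24d, a cargo adaptor of COPII coats, read 6.64 and 7.45 against 7.57 and 7.73.

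**Figure D4:**
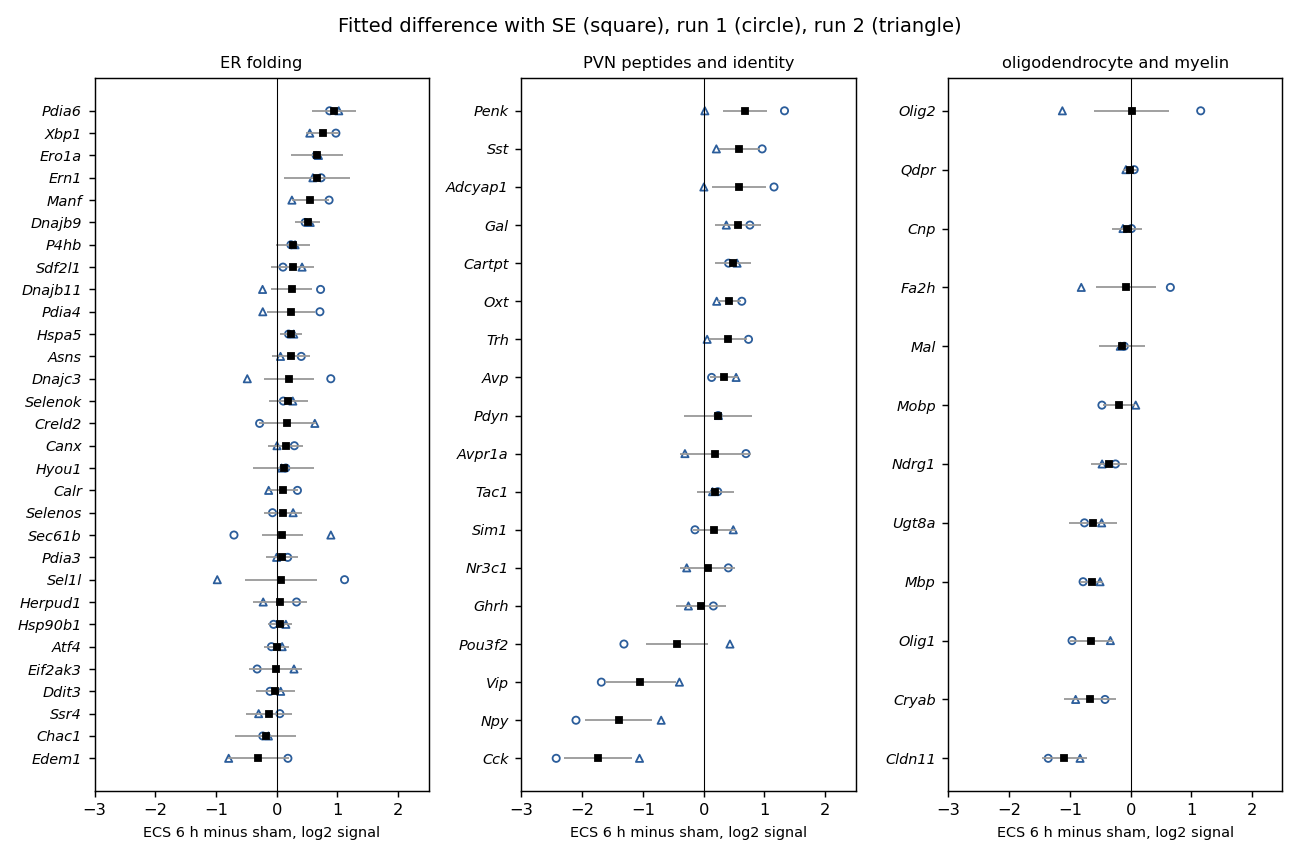
Difference between ECS 6 h and sham (log2 signal) for each tested gene of 3 lists, with the limma estimate and its SE (square and bar) and each run (circle, run 1; triangle, run 2). Most ER folding genes lie just above 0, the PVN list ranges from Cck at -1.74 to Penk at 0.68, and the myelin list lies mostly below 0.

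Oligodendrocyte and myelin genes were lower. Of 12 tested markers 11 were lower, 6 without overlap, where 15.4% of all genes were lower without overlap. The median was -0.28 (-0.34 in run 1 and -0.47 in run 2), or -0.091 with the mean over each gene's probe sets. Mbp (myelin basic protein) read 10.76 and 10.55 in sham and 9.98 and 10.05 at 6 h on its brightest probe set, a difference of -0.64 ± 0.19, and all 7 of its tested probe sets were lower, 5 without overlap. Cldn11, the tight junction protein of myelin, read 8.31 and 7.97 against 6.95 and 7.14. Olig1, a transcription factor of the lineage, read 8.21 and 7.82 against 7.24 and 7.49, and Ugt8a, which makes myelin galactolipids, read 6.51 and 6.26 against 5.75 and 5.79. The summed signal of the list was 8704 and 8181 in sham, 7777 and 7862 at 2 h and 7426 and 6964 at 6 h. Ptgds, which this lineage also makes, was lower in the same arrays. The part of these markers in other differences was not tested.

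Other glia showed no common direction. Astrocyte markers were higher in 6 and lower in 9 of 15, with Sox9, a factor of the lineage, at 5.57 and 5.73 in sham and 6.93 and 6.17 at 6 h, and Slc1a2, the main glutamate transporter, at 8.65 and 9.17 against 7.54 and 8.59. Gfap, the filament of reactive astrocytes, read 7.94 and 7.34 against 8.05 and 8.02. Microglia and macrophage markers were higher in 6 and lower in 8 of 14. C1qc, a subunit of complement C1q, read 6.19 and 6.22 in sham and 7.34 and 7.32 at 6 h, a difference of 1.13 ± 0.40, after 4.97 and 5.67 at 2 h. Cd53, a tetraspanin of white cells, read 7.97 and 6.95 against 5.95 and 6.70. Tyrobp, a signalling adaptor of microglia, read 8.29 and 8.19 against 7.99 and 7.29.

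Genes of antigen presentation and interferon response stood on both sides of sham. Of 13 tested genes of interferon and NF-kappaB response 9 were higher and 4 lower, 5 and 3 without overlap. Of all genes 15.0% were higher and 15.4% lower without overlap. The median was 0.070, or -0.097 without the second sham array. The genes named next were all on the high side. H2-K1, a class I histocompatibility gene, read 6.85 and 6.36 in sham and 7.57 and 7.60 at 6 h, and H2-D1 read 6.00 and 6.51 against 7.92 and 7.15. All tested probe sets of both genes, 2 and 3, were higher without overlap, although near-identical class I genes can share such probes and the source of the signal is uncertain. Ifitm3, an antiviral membrane protein, read 6.94 and 6.92 against 7.57 and 7.55, by 0.63 in each run. Irf1, a transcription factor of this response, read 5.30 and 6.04 against 7.30 and 6.32.

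The immediate early genes stood near sham. Their median was -0.10 at 6 h against 0.77 at 2 h over the same 14 genes. At 6 h 6 were higher and 8 lower, 3 and 4 without overlap, beside 15.0% and 15.4% of all genes. Fos read 5.04 and 5.02 in sham, 7.25 and 6.81 at 2 h and 5.32 and 5.83 at 6 h, so it was still slightly above sham. Jun, the partner of Fos in AP-1, read 8.53 and 7.61 in sham and 8.96 and 8.58 at 6 h, and its difference of 0.70 ± 0.36 was 0.24 without the second sham array. Egr1, a zinc finger factor, read 8.31 and 8.15 in sham, 9.45 and 8.90 at 2 h, and 7.51 and 7.79 at 6 h, so it stood above sham first and below it later. Klf6, a Krüppel-like factor, read 7.70 and 8.05 in sham, 7.88 and 7.92 at 2 h, and 6.24 and 7.33 at 6 h, a difference of -1.09 ± 0.41 from sham, or -0.54 without the first array at 6 h.

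Effector genes of neuronal activity were split. Of 24 tested genes 16 were higher and 8 lower at 6 h, 8 and 5 without overlap, beside 15.0% and 15.4% of all genes. The median was 0.28, with 0.067 in run 1 and 0.22 in run 2. Tnfrsf12a, the receptor of the cytokine TWEAK, read 5.13 and 4.61 in sham and 5.63 and 6.32 at 6 h after 6.44 and 6.34 at 2 h, a difference of 1.10 ± 0.44. Bdnf (brain-derived neurotrophic factor) read 5.36 and 5.59 against 6.32 and 5.80. Homer1, a scaffold of postsynaptic glutamate receptors, read 7.68 and 7.77 in sham and 5.94 and 7.00 at 6 h, a difference of -1.26 ± 0.46, or -0.72 without the first array at 6 h. The other tested probe set of Homer1 overlapped with sham. Nptx1 (neuronal pentraxin 1), which clusters AMPA receptors, read 8.03 and 7.60 against 6.42 and 7.34. The lower forebrain marker sum stands beside these values, and its part in them was not tested.

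Targets of the glucocorticoid receptor, which corticosterone activates after a stressor, had no common direction. Of 22 tested genes 11 were higher and 11 lower at 6 h, 2 and 6 without overlap, beside 15.0% and 15.4% of all genes. The median was -0.033, beside 0.27 at 2 h. Fkbp5, a co-chaperone of the receptor, read 6.19 and 5.43 in sham and 6.72 and 6.18 at 6 h, with overlap, and Klf15, a Krüppel-like factor, read 5.57 and 5.37 against 6.59 and 6.14. Sgk1, a kinase, was on the other side at 7.03 and 7.25 against 5.99 and 6.95, and so was Zbtb16, a zinc finger repressor, at 7.12 and 5.81 against 5.62 and 5.26. All 3 tested probe sets of Klf9, another Krüppel-like factor, were lower without overlap.

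Clock genes are given because the collections lay 4 h apart. Of 17 tested genes 12 were lower and 5 higher, 4 and 2 without overlap, beside 15.4% and 15.0% of all genes. The median was -0.22. It turned to 0.089 without the first sham array and was also above 0 without the second array at 6 h. Hlf, a PAR bZIP factor under clock control, read 6.62 and 7.43 in sham, 4.53 and 5.65 at 2 h and 4.54 and 5.89 at 6 h. Its difference at 6 h was -1.81 ± 0.58, or -1.12 without the first array at 6 h, while its other tested probe set read 6.04 and 5.51 in sham and 6.15 and 5.39 at 6 h, with overlap. Its relative Tef read 7.73 and 7.63 in sham and 6.77 and 7.59 at 6 h, and Dbp, the third PAR bZIP factor, was split between its probe sets. The brighter read 8.14 and 8.21 against 8.24 and 8.44, a difference of 0.17, and the other read 7.09 and 7.16 against 5.53 and 6.66, a difference of -1.02. Per1, a core clock repressor, read 5.43 and 5.88 against 6.27 and 4.59, Nr1d1 (REV-ERB alpha) 6.40 and 6.51 against 6.78 and 5.35, and Per3 5.34 and 5.24 against 5.36 and 5.85. The arrays at 6 h thus lay on either side of sham for Per1 and Nr1d1. Bhlhe40, a repressor of the clock, read 6.77 and 5.61 against 5.64 and 5.22.

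Housekeeping groups stayed within small shifts whose direction depended in part on the scaling. Of 39 tested subunits of oxidative phosphorylation 28 were lower and 11 higher, 12 and 2 without overlap. Of all genes 15.4% were lower and 15.0% higher without overlap. The median was -0.077, which turned above 0 with no scaling or with median scaling. Sdha, a subunit of complex II, read 11.65 and 11.62 in sham and 11.42 and 11.41 at 6 h, and its difference of -0.22 ± 0.13 was 0.0099 with median scaling. Ndufa2, a subunit of complex I, was on the other side at 10.83 and 11.30 against 11.54 and 11.56. Of 23 cytosolic ribosomal proteins 16 were higher, with a median of 0.083 that was 0.0058 without the second sham array and 0.31 with median scaling, and Rpl19 read 11.19 and 11.02 against 11.43 and 11.25. Of 30 proteasome subunits 21 were higher, with a median of 0.068, or 0.031 without the second array at 6 h. Of 19 histone and chromatin regulators 13 were higher, with a median of 0.23, or 0.12 without the second array at 6 h. Heat shock genes had a median of -0.025, with 7 higher and 12 lower of 19, and Hspa1b, an inducible Hsp70, read 6.29 and 5.90 against 5.54 and 5.24. Genes of cholesterol synthesis and uptake were higher in 13 and lower in 8 of 21.

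**Figure D5:**
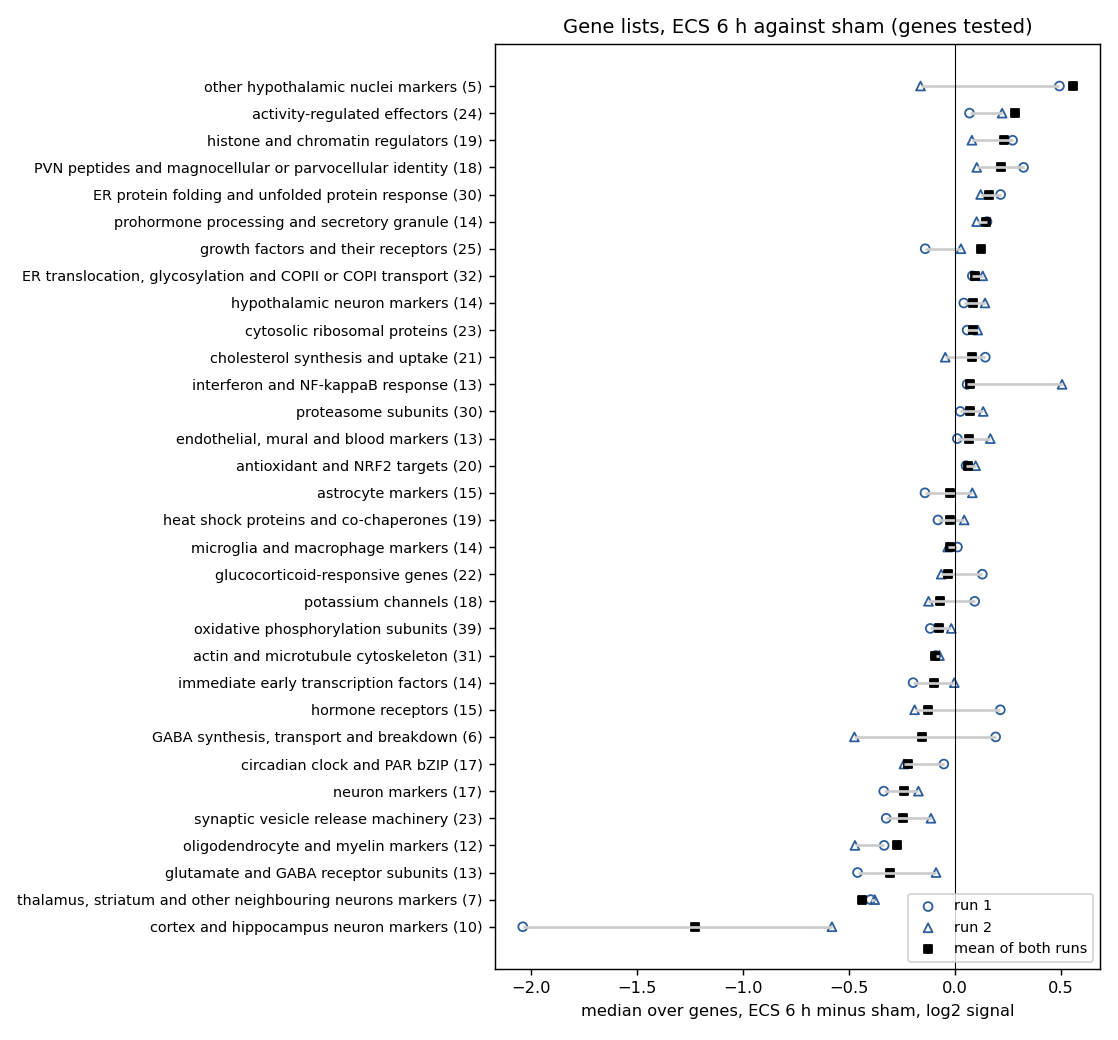
Median difference between ECS 6 h and sham (log2 signal, x axis) over the tested genes of each list with at least 5 tested genes (number in brackets), for the mean of both runs (square), run 1 (circle) and run 2 (triangle). The forebrain neuron markers lie farthest from 0 at -1.23, and most lists lie within 0.3 of it.

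Against ECS at 2 h, 0 of 12662 probe sets (0%) passed at 6 h (limma, smallest adjusted p = 0.688), and 438 had an unadjusted p under 0.05. The lower level of the forebrain markers at 2 h, with a median of -2.24 against sham, was -1.23 at 6 h. The ER folding list stood at 0.084 at 2 h and 0.16 at 6 h, the myelin list at -0.28 at both times. Both times are set against the same 2 sham arrays, so their values are given side by side and not as independent evidence.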

How the data were processed

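The PVN of sham mice at 2 h and of ECS mice at 2 h and 6 h was measured on 6 one-colour Affymetrix mouse arrays. The deposited values are linear signal intensities from MAS5, which the submitters' processing notes name without a version, and detection calls were not used here. The 64 control probe sets were left out. The rest were quantile-normalised over the 6 arrays and written as log2(signal + 16). Probe sets that reached the median of their array on 2 or more arrays were tested with limma 3.58.1 in R 4.3.3 (a mean per group, variance trend, prior degrees of freedom 7.64, residual 3, two-sided, Benjamini-Hochberg over all 12662). The number of arrays limits the precision, and array medians as deposited ranged from 25.2 to 40.8, so dim genes are compressed.

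Symbols came from the array annotation (20380 probe sets with 1 symbol, 691 with several, 1555 with none). A list counts each gene once, by its brightest probe set, with no set test. Named genes are the 12 smallest p-values, the 10 highest and 10 lowest of the 2-fold differences, up to 4 members per list by p, and a fixed set of PVN, clock and activity genes. Crh, Pcsk2 and Ciart had no probe set with that symbol alone, and Per2 and Arntl did not pass the filter. The comparison, lists and rule were chosen with earlier results of these data known. The replicate numbers of the groups correlated in their deviations by 0.15 to 0.23. The fit was tested on simulated data. Alternatives were the offset, scaling, filter, variance trend, replicate block, the 4 arrays alone, the mean of a gene's probe sets and each array left out.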

Additional observations from a re-analysis of the deposited data

Results flagged for a closer look

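In 4 of the genes named by rule, both arrays at 2 h lay on the opposite side of both sham arrays from both arrays at 6 h. The share of all genes with this pattern was not counted, so the 4 are a description only. At 6 h alone 15.0% of all genes lay above sham without overlap and 15.4% below it. The difference between 6 h and 2 h was itself tested, and none passed (limma, adjusted p = 0.999 for each). C1qc, a complement subunit, was 2.01 higher on the log2 scale at 6 h than at 2 h, and Kcnj6, a subunit of G protein-gated potassium channels, was 1.74 higher, with 5.90 and 5.65 in sham, 4.24 and 5.46 at 2 h and 6.28 and 6.91 at 6 h. Only 1 of the 5 probe sets of Kcnj6 passed the filter on low signal. Egr1 differed by -1.53 between 6 h and 2 h. Dnajb5, a co-chaperone of Hsp70, differed by -1.08, with 8.67 and 8.68 in sham, 9.07 and 9.34 at 2 h and 8.37 and 7.87 at 6 h. Groups of 2 arrays are too small for a check of single outlying arrays.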

How the results depend on the processing

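The count of 0 probe sets called at 6 h against sham held under 12 of 13 alternatives, the replicate block included (0 calls, smallest adjusted p = 0.264, 793 unadjusted p-values under 0.05), and was between 0 and 6 when each array in turn was left out. The 6 calls came without the second array at 6 h, where the first array stands alone and is assumed to vary like the other groups, and they included Irak1, Lamp5 and Mef2c. The same setting gave 3 calls at 6 h against 2 h, where leaving out the other arrays gave 0. The 414 probe sets at least 2-fold apart without overlap were 910 with an offset of 1, 62 with an offset of 64, 131 with the filter at the 75th percentile, and 423 to 1579 without 1 array. The share of them that was higher was 40.1%, but 51.9% without the second sham array and 53.2% without the first array at 6 h. With median scaling the median of all genes moved to 0.11. Over the 104 gene values, the sign turned with median scaling for Sdha (0.0099). Leaving out 1 array in turn gave -1.10 to 0.32 for Nr1d1, -1.07 to 0.61 for Per1, -0.38 to 0.86 for Pdyn and -0.096 to 0.89 for Trh. List medians kept their sign under all 12 alternatives for forebrain neurons, ER folding, ER transport, PVN peptides, hormone processing, myelin, neuron, hypothalamic and synaptic genes, receptor subunits, effectors, ribosomal, proteasome and chromatin genes. Those of the clock, immediate early, glucocorticoid, antioxidant, interferon, oxidative phosphorylation, heat shock, cholesterol, growth factor, astrocyte, microglia and vessel lists turned under at least 1. Genes near the floor of 4 changed in size with the offset, as given for Igfbp5 and Rpl37a.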
